A study of Homo sapiens with 9 samples.

Results

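The 9 genes described here encode chemokines, small secreted or membrane-held proteins that attract leukocytes: CXCL8, CXCL1, CXCL2, CXCL3, CCL2, CCL20, CXCL10, CXCL16 and CX3CL1. They were chosen by name as keratinocyte chemokines, with earlier results of the same libraries known, and are 9 of the 78899 gene IDs counted. All 9 names matched an ID. Of the 39344 IDs with a count in at least 1 library, 16921 passed a filter on low counts, and among them were 8 of the 9 chemokines. CX3CL1 did not pass. Because the choice drew on values of these libraries, the fits below describe the genes and lend no independent support to any difference.

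All libraries came from HaCaT cells, an established line of immortalized human keratinocytes, kept in high-glucose DMEM with serum low in calcium and with antibiotics. Total RNA was depleted of rRNA and read in pairs from stranded libraries. The groups were 3 libraries of a subpopulation labelled BD and 3 of a subpopulation labelled NBD, both defined by fluorescence-activated sorting, and 3 of the cell line, labelled control. The labels spell out neither abbreviation, name no sorting marker, and list no treatment or time. HaCaT is 1 cell line, and separate cultures are not named for the replicates. The p-values therefore measure only how far these libraries scatter, and that scatter may be technical.

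Chemokines bind G-protein-coupled receptors, and cells that carry these move up the gradient of the ligand. CXCL8, CXCL1, CXCL2 and CXCL3 act on CXCR2, and CXCL8 also on CXCR1, receptors best known on neutrophils. CCL2 draws monocytes through CCR2, CCL20 draws cells with CCR6, among them dendritic cells and interleukin-17-producing T cells, and CXCL10 draws activated T cells through CXCR3. CXCL16 and CX3CL1 are made as transmembrane proteins, can be cut from the surface by proteases, and bind CXCR6 and CX3CR1. In epidermis, keratinocytes are known to make many of these ligands after interleukin-1, TNF, interleukin-17 or interferon-gamma, and NF-kB factors are known to act at several of the promoters.

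Of the 9 genes, 5 lie on the long arm of chromosome 4 (GRCh38, gene bounds from GENCODE 29): CXCL8 at chr4:73740506-73743716 and CXCL1 at chr4:73869393-73871242, both on the plus strand, then CXCL3 at chr4:74036589-74038807, CXCL2 at chr4:74097035-74099293 and CXCL10 at chr4:76021117-76023497, all on the minus strand. CCL20 lies at chr2:227805739-227817564 on the plus strand. CCL2 at chr17:34255218-34257203, on the plus strand, and CXCL16 at chr17:4733526-4739922, on the minus strand, share chromosome 17, and CX3CL1 lies at chr16:57372458-57385048 on the plus strand. The promoters of the chromosome 4 genes are printed because their transcripts include most of the members with a similar course over the libraries and because they share a short motif. Each is the RefSeq sequence on GRCh38.p14, 250 bases before to 50 after the transcript start, read 5′ to 3′ on the gene's own strand. They span chr4:73869143-73869442 (CXCL1, plus), chr4:74099146-74099445 (CXCL2, minus), chr4:74038640-74038939 (CXCL3, minus), chr4:73740319-73740618 (CXCL8, plus) and chr4:76023448-76023747 (CXCL10, minus). Capitals mark matches to the motifs described after the sequences.
CXCL1: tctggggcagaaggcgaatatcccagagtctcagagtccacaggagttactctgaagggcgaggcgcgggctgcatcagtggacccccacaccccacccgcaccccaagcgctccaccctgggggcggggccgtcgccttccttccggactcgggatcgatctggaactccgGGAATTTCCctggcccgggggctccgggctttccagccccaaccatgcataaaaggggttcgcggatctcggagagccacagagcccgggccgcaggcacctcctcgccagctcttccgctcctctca
CXCL2: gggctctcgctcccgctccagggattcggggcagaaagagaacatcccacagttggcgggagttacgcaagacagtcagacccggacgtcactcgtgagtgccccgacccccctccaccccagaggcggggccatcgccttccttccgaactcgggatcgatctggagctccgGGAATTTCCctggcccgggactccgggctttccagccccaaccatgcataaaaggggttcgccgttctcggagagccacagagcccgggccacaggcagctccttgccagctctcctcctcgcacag
CXCL3: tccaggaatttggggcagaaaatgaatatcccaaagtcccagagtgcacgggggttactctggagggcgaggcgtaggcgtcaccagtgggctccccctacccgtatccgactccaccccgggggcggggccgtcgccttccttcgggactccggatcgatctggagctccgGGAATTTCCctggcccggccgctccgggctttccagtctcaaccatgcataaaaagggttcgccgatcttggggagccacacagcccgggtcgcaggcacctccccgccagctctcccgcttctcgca
CXCL8: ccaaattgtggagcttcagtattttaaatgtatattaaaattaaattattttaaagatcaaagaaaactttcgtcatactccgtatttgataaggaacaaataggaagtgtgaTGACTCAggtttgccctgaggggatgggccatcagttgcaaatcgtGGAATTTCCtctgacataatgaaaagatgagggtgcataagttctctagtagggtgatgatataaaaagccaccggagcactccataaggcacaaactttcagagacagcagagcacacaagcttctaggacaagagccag
CXCL10: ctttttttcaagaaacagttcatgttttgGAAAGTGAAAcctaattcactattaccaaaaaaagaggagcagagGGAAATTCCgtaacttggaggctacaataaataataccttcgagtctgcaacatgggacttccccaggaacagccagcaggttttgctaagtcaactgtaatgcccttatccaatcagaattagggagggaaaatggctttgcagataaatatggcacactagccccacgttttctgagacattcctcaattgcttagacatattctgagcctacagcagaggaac

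Capitals in CXCL1, CXCL2, CXCL3 and CXCL8 include the kappa-B motif GGAATTTCC, a form of the site bound by NF-kB factors, and CXCL10 carries its reverse complement GGAAATTCC. The motif was searched on both strands in the 6 chemokine promoters that the RefSeq table holds, the 5 printed and that of CCL20. It was found in 5 of the 6, and in 162 of all 35116 promoters of the same length, or 0.461%. It began 78, 77 and 78 bases before the start in CXCL1, CXCL2 and CXCL3, 91 bases before it in CXCL8 and 176 bases before it in CXCL10. The AP-1 motif TGANTCA, in which N is any base, stood 137 bases before the start of CXCL8 and in 7.71% of all promoters. The interferon-stimulated response motif, searched as GAAA, any 2 bases and GAAA, or as TTTC, any 2 bases and TTTC on the other strand, stood 221 bases before the start of CXCL10 and in 3.57% of all promoters. No marked matches overlapped. CCL20 held none of these letter strings in its window. The motifs were chosen after values and sequences of these genes were known, and a match describes letters, not binding.

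The copies of the CXCL1 group resembled each other closely. Between CXCL1, CXCL2 and CXCL3 the promoters were identical at 82.8 to 86.6% of aligned bases, with the longest shared run 25 to 42 bases, while against CXCL8 the identity was 55.3 to 56.8%. Their coding sequences, 321 bases each in GENCODE 29, were identical at 93.5% for CXCL1 and CXCL2, 90.7% for CXCL1 and CXCL3 and 94.4% for CXCL2 and CXCL3, with shared runs of up to 97 bases. Against the coding sequence of CXCL8, of 297 bases, the identity was 56.3 to 60.6%. How reads that match several genes were counted was not given in the sources used here, so the split of counts between CXCL1, CXCL2 and CXCL3 is uncertain.

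Total counts were 25754757 to 28948743 in BD, 25862752 to 29512856 in NBD and 17128797 to 25782938 in control. Control replicates 1 and 2, with the smallest totals, stood apart from control replicate 3 and from the sorted libraries: of the 16921 genes tested, 21.6% were lower in each of these 2 controls than in all other 7 libraries and 18.9% were higher, while control replicate 3 fell within the range of the 6 sorted libraries for 87.3%. Summed levels of 8 keratinocyte markers, among them KRT5, KRT14 and TP63, all tested, were 2615 to 3025 CPM in BD, 2299 to 2839 CPM in NBD and 2545 to 3409 CPM in control. Of 8 leukocyte markers 2 passed the filter. Their sum over all 8 was 5.97 to 7.86 CPM in BD, 4.88 to 7.83 CPM in NBD and 1.40 to 7.49 CPM in control. Of 6 fibroblast, 4 endothelial and 4 melanocyte markers 3, 2 and 1 were tested. Their sums were 4.10 to 5.20, 11.9 to 18.9 and 0.834 to 1.53 CPM in BD, 2.89 to 4.22, 6.74 to 16.3 and 1.07 to 1.85 CPM in NBD, and 0.715 to 5.24, 1.85 to 16.8 and 0.204 to 0.841 CPM in control. Mitochondrial rRNA took 17.3 to 22.3% of counts in BD, 26.8 to 28.9% in NBD, and 12.3, 11.9 and 20.7% in control, so that BD and NBD did not overlap and control replicates 1 and 2 were the lowest. In the leukocyte, fibroblast and endothelial sums, control replicates 1 and 2 were the low control libraries. In the keratinocyte sum they were the highest of all 9 libraries, at 3087 and 3409 CPM, with control replicate 3 at 2545 CPM. The part of these library differences in the chemokine levels was not tested, so levels of control replicates 1 and 2 and of control replicate 3 are given apart. In bulk RNA, fewer cells that make a transcript and less of it per cell cannot be told apart.

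Levels are given as normalised CPM, counts per 1000000 counts of the library after TMM scaling of library size. CXCL8, a strong neutrophil attractant, stood at 144, 156 and 234 CPM in BD replicates 1, 2 and 3, at 142, 111 and 304 CPM in NBD, and at 9.96, 9.08 and 249 CPM in control. The sorted groups overlapped, replicate 3 was highest in each of them, and control replicates 1 and 2 were below every other library. Control replicate 3 held 25.0 times the CXCL8 level of control replicate 1 and 27.5 times that of control replicate 2, from counts of 6623 against 195 and 162.

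CXCL1, also called GRO-alpha, had 62.4, 51.7 and 64.8 CPM in BD, 72.0, 61.5 and 97.3 CPM in NBD, and 14.5, 13.0 and 93.0 CPM in control. Control replicates 1 and 2 were again below every other library, with control replicate 3 at 6.43 and 7.15 times their level, a narrower gap than for CXCL8. CXCL3 had 21.1, 17.4 and 17.3 CPM in BD, 26.7, 20.1 and 27.3 CPM in NBD, and 0.255, 0.0561 and 26.1 CPM in control. The levels in control replicates 1 and 2 rested on 5 counts and 1 count. Their exact binomial 95% intervals were 0.0829 to 0.596 and 0.00142 to 0.312 CPM, which cover counting error only. CXCL3 was therefore within the sorted range in control replicate 3 and near the limit of detection in the other control libraries.

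CXCL2, whose coding sequence is 94.4% identical to that of CXCL3, had far fewer counts. It stood at 1.32, 0.510 and 1.76 CPM in BD, at 1.07, 0.993 and 1.69 CPM in NBD, and at 0.204, 0.505 and 2.22 CPM in control. Control replicate 2, with 9 counts, lay just below BD replicate 2, with 13 counts, so the gap between these libraries was within counting error. For CXCL2 the control group thus held both the lowest and the highest of the 9 libraries.

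CCL2, the monocyte attractant, stood at 295, 344 and 256 CPM in BD, at 249, 311 and 371 CPM in NBD, and at 2.81, 2.41 and 247 CPM in control. Replicate 3 was the lowest BD library and the highest NBD library, unlike CXCL8, for which it was the highest in both. Every sorted library lay above every control library, but BD replicate 3 and NBD replicate 1 did so by little over control replicate 3. Control replicate 3 held 88.0 times the CCL2 level of control replicate 1 and 103 times that of control replicate 2, from counts of 6567 against 55 and 43, the widest such ratio among the members with more than 5 counts in both.

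CCL20 had 4.86, 3.38 and 9.51 CPM in BD, 5.56, 3.56 and 12.3 CPM in NBD, and 0.204, 0.168 and 10.7 CPM in control. Control replicates 1 and 2 held 4 and 3 counts. As with CXCL8, replicate 3 was the highest library of BD and of NBD. CXCL10, an interferon-inducible ligand, had 2.29, 2.51 and 2.52 CPM in BD and 1.85, 0.869 and 3.15 CPM in NBD. In control replicate 1 CXCL10 had 0 counts, which allows up to 0.153 CPM at 3 counts, in control replicate 2 it had 6 counts or 0.336 CPM, and in control replicate 3 it had 2.45 CPM. The BD libraries of CXCL10 lay close together, with an SD of 0.128 CPM, between the lower and the higher NBD libraries, with an SD of 1.14 CPM.

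CXCL16, which is both a ligand for CXCR6 and a scavenger receptor for oxidized lipoprotein, did not share this course. It stood at 18.7, 18.9 and 20.3 CPM in BD, at 15.6, 11.5 and 13.3 CPM in NBD, and at 14.2, 17.2 and 19.8 CPM in control. All BD libraries were above all NBD libraries, and control replicates 1 and 2 lay between the lowest and the highest sorted library. CX3CL1, the other transmembrane member, had at most 15 counts in any library: 0.174, 0.118 and 0.517 CPM in BD, 0.185, 0.124 and 0.236 CPM in NBD, and 0.102, 0.224 and 0.301 CPM in control. The groups overlapped, and with 2 to 15 counts per library no difference between them was detectable at this depth.

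**Figure D1:**
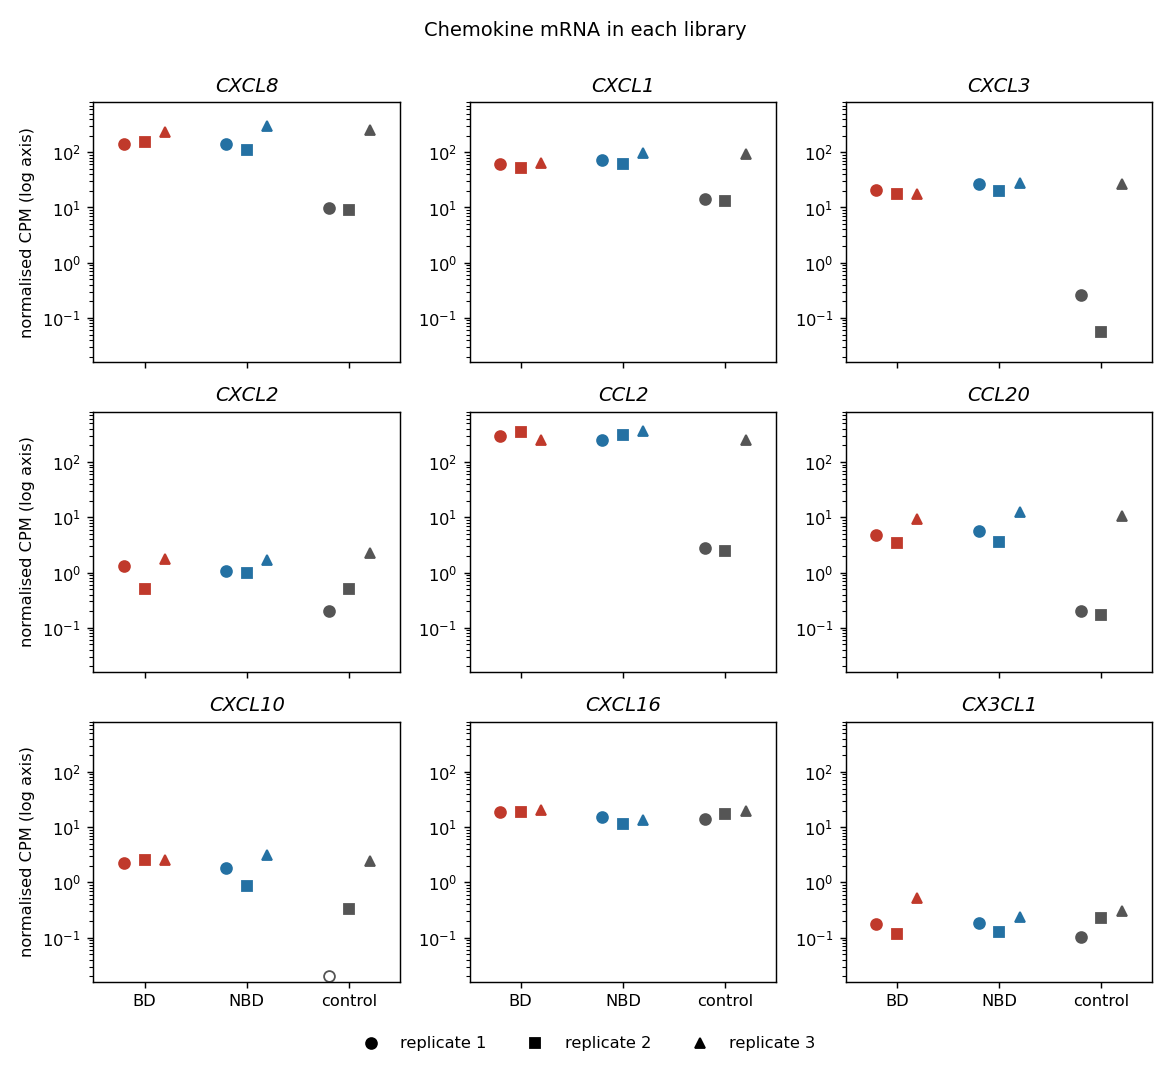
Levels of the 9 chemokines in each library as normalised CPM on a logarithmic axis, with BD, NBD and control from left to right and 1 point per library; the open circle near the foot of the CXCL10 panel marks control replicate 1, with 0 counts. For CXCL8, CXCL1, CXCL3, CCL2, CCL20 and CXCL10, control replicates 1 and 2 sit below the sorted libraries and control replicate 3 sits at or near their level, while CXCL16 has no such gap.

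Counted over the members, 7 of the 9 were lower in each of control replicates 1 and 2 than in all other libraries: CXCL1, CXCL2, CXCL3, CXCL8, CCL20, CCL2 and CXCL10. Over all genes tested this held for the 21.6% given above. In 6 of the 8 tested members, CXCL1, CXCL3, CXCL8, CCL20, CXCL10 and CXCL16, control replicate 3 lay within the range of the sorted libraries, against 87.3% of all genes tested. For CX3CL1, which was not tested, control replicate 3 lay within that range too. Of the other members that passed the filter, CXCL2 was above that range in control replicate 3 and CCL2 just below it. Replicate 3 was the highest library of both BD and NBD in 5 of the 8 tested members, CXCL1, CXCL2, CXCL8, CCL20 and CXCL10, against 13.2% of all genes tested. CX3CL1, which was not tested, had the same order at few counts. These libraries share a number only, and the labels give no batch. The pattern was seen in the data and is a description.

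BD against NBD compares the sorted subpopulations, which the study set out to tell apart. In edgeR's quasi-likelihood test over all 9 libraries, with Benjamini-Hochberg adjustment over 16921 genes, 0 of the 8 tested chemokines were called at an adjusted p under 0.05. The test called 0.0% of all genes higher and 0.0177% lower in BD. At an unadjusted p under 0.05 there was 1 chemokine, CXCL16, and 991 genes in all. DESeq2 called 0 members, 0.0532% of all genes higher and 0.29% lower, and limma-voom called 0 members, 0.0% of all genes higher and 0.0295% lower. The log2 fold change was above 0 for CXCL16 and CXCL10, 2 of 8, and for 48.4% of all genes tested, with a median over the 8 of -0.06 beside -0.02 over all genes tested.

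Of the neutrophil attractants, CXCL8 and CXCL2 differed little in mean between the sorted groups, while CXCL1 and CXCL3 averaged lower in BD. The intervals were wide in the fit of all 9 libraries. CXCL8 averaged 178 ± 48.9 CPM in BD and 185 ± 103 CPM in NBD (SD, n = 3 each), a log2 fold change of -0.06 ± 1.01 (SE) and a fold of 0.958 with a 95% interval of 0.203 to 4.52. CXCL1 averaged 59.6 ± 6.97 CPM in BD and 76.9 ± 18.4 CPM in NBD, with a log2 fold change of -0.37 ± 0.62, and CXCL3 averaged 18.6 ± 2.20 CPM in BD and 24.7 ± 4.00 CPM in NBD, with -0.41 ± 1.20. CXCL2 averaged 1.20 ± 0.633 CPM in BD and 1.25 ± 0.382 CPM in NBD, with a log2 fold change of -0.06 ± 0.74. Their adjusted p-values in this fit were 0.948 to 0.996. The standard errors share 1 estimate of spread with the control group, whose libraries differed most. With the 6 sorted libraries alone, the standard error was 0.20 for CXCL1 and 0.19 for CXCL3, with log2 fold changes of -0.38 and -0.42, and neither was called (adjusted p = 0.623 and 0.584). In that fit CXCL8 was at -0.08 ± 0.36 and CXCL2 at -0.08 ± 0.50, and neither was called.

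CCL2 averaged 298 ± 43.9 CPM in BD and 310 ± 60.8 CPM in NBD, with a log2 fold change of -0.06 ± 1.24, and with the 6 sorted libraries alone it was -0.07 ± 0.21, with a 95% interval of -0.54 to 0.40. CCL20 averaged 5.92 ± 3.20 CPM in BD and 7.13 ± 4.57 CPM in NBD, with -0.27 ± 1.13, and CXCL10 averaged 2.44 ± 0.128 CPM in BD and 1.96 ± 1.14 CPM in NBD, with 0.32 ± 0.95. With the 6 sorted libraries alone, CCL20 was at -0.28 ± 0.50 and CXCL10 at 0.30 ± 0.45. CCL2, CCL20 and CXCL10 were not called, and the groups overlapped in each. CXCL16 averaged 19.3 ± 0.891 CPM in BD and 13.4 ± 2.07 CPM in NBD, 1.44-fold with a 95% interval of 1.05 to 1.96. Its groups did not overlap, with BD above NBD, as for 7.19% of all genes tested. Its log2 fold change was 0.52 ± 0.20 by edgeR, with an unadjusted p of 0.0264 and an adjusted p of 0.814, so it was not called. The mitochondrial rRNA share also separated BD from NBD, and its part in the CXCL16 difference was not tested. Over all alternatives its log2 fold change stayed between 0.43 and 0.64, with adjusted p-values of 0.433 to 1.

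BD against control and NBD against control ask how each sorted subpopulation differs from the cell line, and both use the same 3 control libraries. By edgeR, 0 of 8 members were called in either comparison, as were 0.0% of all genes in each direction. By edgeR 0 members had an unadjusted p under 0.05, beside 2334 genes in BD against control and 1545 in NBD against control. DESeq2 and limma-voom called 0 members. By limma-voom the unadjusted p was under 0.05 for 4 members in BD (CCL2, CXCL3, CXCL10 and CXCL8) and 5 in NBD (CCL2, CXCL3, CXCL1, CXCL8 and CCL20), beside 2624 and 1815 genes, and the median log2 fold changes of the 8 were 2.51 in BD and 2.45 in NBD. Of all genes, DESeq2 called 0.065% higher and 0.922% lower in BD, and 0.0709% higher and 0.106% lower in NBD, and limma-voom called 0.00591% lower in BD and 0.0% otherwise. DESeq2 gave no adjusted p for CXCL3. The log2 fold change was above 0 for 8 of 8 members in BD against control, with a median of 0.82 by edgeR, and for 7 of 8 in NBD against control, with a median of 0.98. Over all genes tested it was above 0 for 51.9% and 53.3%, with medians of 0.03 and 0.04.

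Among the members, CCL2 had the highest ratio to control by edgeR with all 9 libraries, while in NBD CXCL3 was above it by limma-voom, with log2 fold changes of 4.47 for CXCL3 and 4.42 for CCL2, and without control replicate 3, as given below. It averaged 298 ± 43.9 CPM in BD, 310 ± 60.8 CPM in NBD and 84.2 ± 141 CPM in control, 3.54-fold in BD with an interval of 0.497 to 25.2 and 3.68-fold in NBD with an interval of 0.515 to 26.3. For CCL2 neither sorted group overlapped the control group. Of all genes tested, 8.05% lay above control without overlap in BD and 4.67% in NBD. CXCL3 averaged 8.80 ± 15.0 CPM in control, with log2 fold changes of 1.06 for BD and 1.47 for NBD, and CXCL8 averaged 89.5 ± 139 CPM in control, with 0.99 for BD and 1.05 for NBD. CXCL10, CXCL1 and CCL20 averaged 0.928 ± 1.33, 40.1 ± 45.7 and 3.70 ± 6.09 CPM in control. Their log2 fold changes were 1.34, 0.57 and 0.65 in BD and 1.03, 0.93 and 0.92 in NBD. In these 6 genes, and in CXCL2 at 0.977 ± 1.09 CPM, the SD over the control libraries was larger than the control mean. CXCL2 had log2 fold changes of 0.26 in BD and 0.33 in NBD, and CXCL16 of 0.18 in BD and -0.34 in NBD. Adjusted p-values of the 8 ranged over 0.50 to 0.877 in BD and 0.557 to 0.869 in NBD.

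These ratios rested on which control library was used. Without control replicate 3, edgeR called 6 of the 8 higher in BD than in control, while 13.8% of all genes were called higher and 10.5% lower. The 6 were CCL2 with a log2 fold change of 6.84 ± 0.31, CXCL3 with 6.83 ± 0.42, CCL20 with 4.96 ± 0.79, CXCL8 with 4.23 ± 0.47, CXCL10 with 3.88 ± 0.87 and CXCL1 with 2.13 ± 0.24. In NBD the same 6 were called, with 7.24 ± 0.42 for CXCL3, 6.91 ± 0.32 for CCL2, 5.24 ± 0.80 for CCL20, 4.31 ± 0.47 for CXCL8, 3.57 ± 0.87 for CXCL10 and 2.50 ± 0.25 for CXCL1, while 11.6% of all genes were called higher and 6.56% lower. Benjamini-Hochberg adjusted p-values of the 6 from edgeR's quasi-likelihood test were 3.49e-06 to 0.00965 in BD and 2.39e-06 to 0.0187 in NBD. CXCL2, at 1.77 ± 0.66 in BD and 1.84 ± 0.66 in NBD, had adjusted p-values of 0.0743 and 0.0773, and CXCL16, at 0.31 and -0.20, was not called. The fitted values of CXCL3, CCL20 and CXCL10 depend on control libraries with 0 to 6 counts. In BD against NBD the same fit called 0 members, 0.0% of all genes higher and 0.0901% lower. With all 9 libraries and no filter on low counts, 3 members, CXCL3, CXCL8 and CCL2, were called higher in BD than in control, beside 1.09% of 39344 genes higher and 1.86% lower. With no filter 4 members, these and CXCL1, were called higher in NBD, beside 0.712% of genes higher and 0.798% lower. In BD against NBD the unfiltered fit called 0 members, beside 0.0127% of genes higher and 0.32% lower. The standard errors of the called members were smaller without the filter. That of CCL2 in BD against control was 0.26, against 1.28 with the filter, at log2 fold changes of 1.83 and 1.82.

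With control replicate 3 standing alone for the controls, 5 of these 6 genes had log2 fold changes below 0. CXCL1 then had a log2 fold change of -0.65 in BD and -0.28 in NBD, CXCL8 of -0.50 and -0.43, CXCL3 of -0.50 and -0.09, CCL20 of -0.87 and -0.59, and CXCL10 of -0.01 and -0.32. CCL2 alone stayed above 0, at 0.27 in BD and 0.32 in NBD. No member was called, and the lone control library was assumed to vary like the other groups. The median over all 9 members was -0.50 in BD and -0.43 in NBD.

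**Figure D2:**
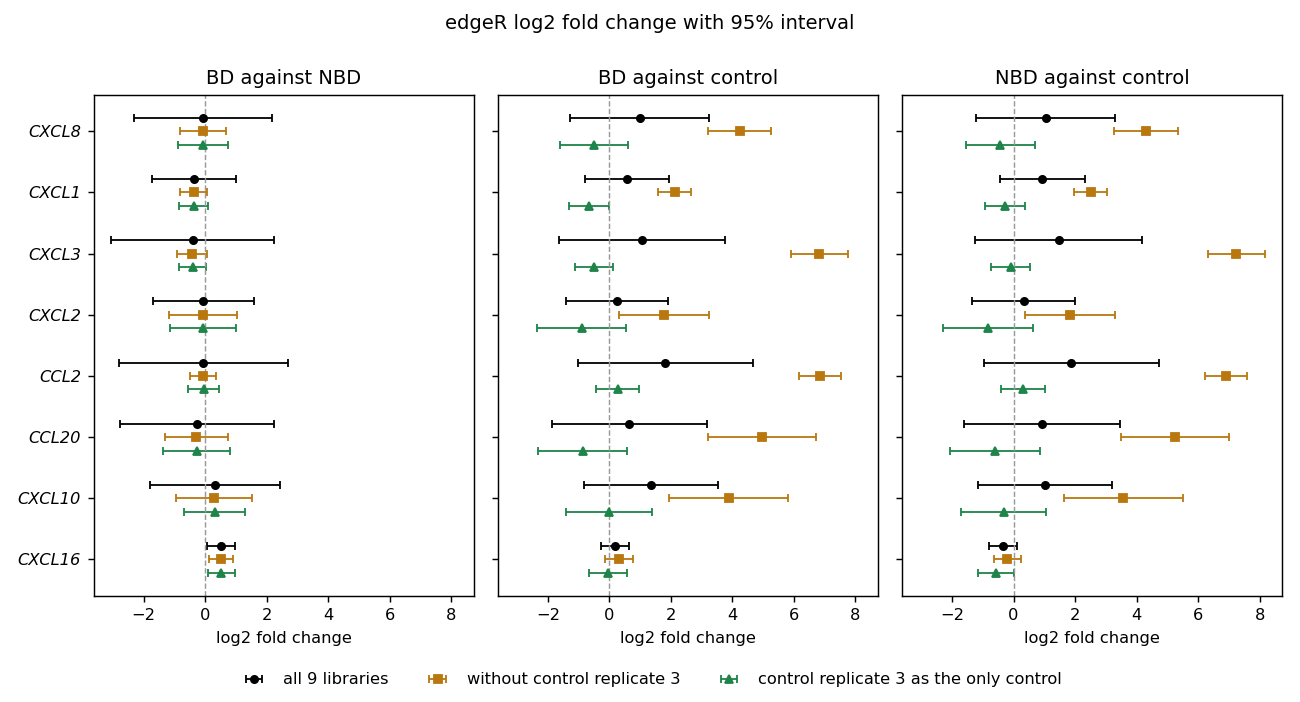
Log2 fold changes of the 8 tested chemokines by edgeR in the 3 comparisons, with all libraries, without control replicate 3, and with control replicate 3 as the sole control; bars are 95% intervals. Against control, CCL2 and CXCL3 lie near 7 without control replicate 3 and within 0.5 of 0 when it is the only control, while in BD against NBD every member lies within 0.53 of 0 in all 3 fits.

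Per kilobase of exon, the levels could be ranked across genes. Over all 9 libraries the mean normalised CPM per kilobase was 116 for CCL2, 66.4 for CXCL8, 45.4 for CXCL1, 7.82 for CXCL3, 5.94 for CXCL16, 3.50 for CCL20, 1.51 for CXCL10, 0.761 for CXCL2 and 0.0368 for CX3CL1. In the sorted libraries CCL2 lay above 98.8% of the 12592 protein-coding genes tested, CXCL8 above 97.4% and CXCL1 above 95.9%, while CXCL3 lay above 70.5%, CXCL16 above 55.9% and CXCL10 above 28.7%. CXCL1 over CXCL3, and CXCL2 over CX3CL1, held in 9 of 9 libraries. CCL2 over CXCL8, CXCL8 over CXCL1, CXCL3 over CXCL16 and CXCL10 over CXCL2 held in 7 of 9, with the reverse order in control replicates 1 and 2. CCL20 and CXCL10 had overlapping ranges in every group, and their order turned in BD replicate 2 and control replicate 2. CXCL16 was above CCL20 in 8 of 9, the exception being NBD replicate 3.

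Ratios within a library show how unequally the members differed between the control libraries. CCL2 per kilobase was 1.26 to 2.53 times CXCL8 in BD, 1.40 to 3.20 times in NBD, and 0.323, 0.304 and 1.14 times in control replicates 1, 2 and 3. CXCL8 was 1.31 to 2.06 times CXCL1 in BD, 1.03 to 1.78 times in NBD, and 0.393, 0.398 and 1.53 times in control. CXCL1 was 5.06 to 6.42 times CXCL3 in BD and 4.62 to 6.11 times in NBD, and 6.10 times in control replicate 3. In control replicates 1 and 2, with 5 counts and 1 count of CXCL3, the CXCL1 to CXCL3 ratio was 96.9 and 397. CCL2 was 17.7 to 25.6 times CXCL16 in BD, 22.5 to 39.3 times in NBD and 17.5 times in control replicate 3, against 0.279 and 0.198 times in control replicates 1 and 2.

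On the opposite strand CXCL10 lies inside ART3, which had 0 counts in all libraries, and CXCL16 overlaps the end of MED11, a Mediator subunit gene with 9.30 to 18.1 CPM. The gene bounds of CXCL16 and MED11 overlap from base 4733526 to 4733610 of chromosome 17, while the exons of CXCL16 cover 2794 bases. The strand setting of the counting was not given in the sources used here. Within that shared stretch, reads of MED11 therefore cannot be told from those of CXCL16.

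Transcripts of the members' receptors were near 0. CXCR1, CXCR3, CXCR6, CCR2 and the decoy receptor ACKR1 had 0 counts in all 9 libraries, CCR6 had 1 count in NBD replicate 2 alone, and CX3CR1 had at most 3 counts. A count of 0 allows up to 0.168 CPM at 3 counts in the shallowest library. CXCR2, the receptor of CXCL8, CXCL1, CXCL2 and CXCL3, had 0.486, 0.785 and 0.862 CPM in BD, 0.556, 0.662 and 0.747 CPM in NBD, and 0.0511, 0.392 and 1.28 CPM in control. Of 22 listed receptors 4 were tested and 11 were at 0 in all libraries, and 3 of the 4 (CXCR2, ACKR3 and ACKR4) were lower in both control replicates 1 and 2 than in the others, against 21.6% of all genes tested. ACKR3, a scavenging receptor for CXCL12, was the most abundant, with 18.6, 26.0 and 45.7 CPM in BD, 18.0, 28.5 and 48.9 CPM in NBD, and 9.25, 8.86 and 42.1 CPM in control. Replicate 3 was the highest in each group, as for CXCL8.

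Of 34 other chemokine ligands 9 were tested and 16 were at 0. CXCL5, another CXCR2 ligand, had 3.99, 3.53 and 5.48 CPM in BD, 5.00, 3.81 and 11.8 CPM in NBD, and 0.102, 0 and 9.79 CPM in control, with 2 counts and 0 counts in control replicates 1 and 2. CXCL6, a ligand of CXCR1 and CXCR2, did not follow it: 5.21, 3.77 and 4.89 CPM in BD, 5.30, 3.97 and 8.42 CPM in NBD, and 5.82, 5.49 and 7.95 CPM in control. CCL28, a mucosal chemokine, had 8.96, 9.11 and 12.2 CPM in BD, 8.33, 5.96 and 14.2 CPM in NBD, and 0.920, 0.449 and 12.5 CPM in control. In all, 6 of the 9 tested ligands, CCL5, CCL7, CCL17, CCL28, CXCL5 and CXCL11, were lower in each of control replicates 1 and 2 than in the other 7 libraries, against 21.6% of all genes tested. CCL26 was higher in both than in the other 7, as were 18.9% of all genes tested.

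All 16 of 16 listed cytokine and cytokine receptor genes and 20 of 20 listed NF-kB genes passed the filter on low counts. Of interleukin-17 and interferon-gamma, only receptor genes were listed. IL1A and IL1B, interleukin-1 alpha and beta, ranged over 61.9 to 110 and 44.1 to 75.3 CPM across all libraries. TNF itself was scarce, at 0.589 to 1.31 CPM in BD, 0.315 to 0.703 CPM in NBD and 0.102 to 0.527 CPM in control. NFKBIA, the inhibitor and feedback target of NF-kB, had 211, 263 and 304 CPM in BD, 180, 155 and 248 CPM in NBD, and 52.5, 51.9 and 257 CPM in control. TNFAIP3, which encodes the feedback protein A20, had 118, 122 and 157 CPM in BD, 195, 100 and 141 CPM in NBD, and 28.9, 29 and 152 CPM in control. NFKBIZ, which encodes an atypical nuclear IkB protein, had 80.9 to 122 CPM in BD, 82.0 to 133 CPM in NBD, and 14.2, 12.1 and 145 CPM in control. These feedback genes, like CXCL8, were low in control replicates 1 and 2 and not in control replicate 3. Of the 20 NF-kB genes 7 were lower in both of these controls than in all other libraries, and 3, IRAK1, TRAF3IP2 and CHUK, were higher, against 21.6% and 18.9% of all genes tested. Of the 16 cytokines and receptors 6 were lower and 3 higher. The subunit gene NFKB1 had 94.1 to 113 CPM in BD, 72.5 to 116 CPM in NBD and 96.2 to 105 CPM in control, with no such gap.

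Of 12 listed STAT and interferon pathway genes, 9 were lower and 0 higher in each of control replicates 1 and 2 than in the other libraries, against 21.6% and 18.9% of all genes tested. Among the 9 was IRF1, with 172, 188 and 193 CPM in BD, 158, 96.4 and 105 CPM in NBD, and 70.5, 71.6 and 134 CPM in control. ADAM10 and ADAM17, the proteases that cut CXCL16 and CX3CL1 from the membrane, were expressed in every library. ADAM10 had 291 to 316 CPM in BD, 321 to 415 CPM in NBD, and 271, 216 and 327 CPM in control, and ADAM17 had 76.8 to 113 CPM over all libraries. Of the 8 tested protease and inhibitor genes 2 were lower in both of these controls and 2 higher. Among 12 regulators of chemokine mRNA decay 4 were lower and 2 higher. ZC3H12A, an endonuclease also called Regnase-1, had 65.4 to 73.7 CPM in BD, 40.4 to 78.9 CPM in NBD, and 15.2, 16.3 and 76.5 CPM in control. KHSRP, a decay-promoting binding protein, had 126 to 162 CPM in BD, 75.8 to 130 CPM in NBD, and 158, 183 and 119 CPM in control, and was not low in control replicates 1 and 2.

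By edgeR 0 genes of these 7 lists were called in any of the 3 comparisons. At an unadjusted p under 0.05 in this test there were 6 of the 81 tested list genes in BD against NBD, 19 in BD against control and 14 in NBD against control. Beside these stood 991, 2334 and 1545 of all 16921 genes tested. The first 6 included TNFRSF1A, the TNF receptor, with a log2 fold change of 0.67 ± 0.15 and an adjusted p of 0.461, and RELA, an NF-kB subunit, with 0.66 ± 0.18 and an adjusted p of 0.648. TNFRSF1A had 113, 120 and 119 CPM in BD, above 78.0, 72.9 and 70.1 CPM in NBD, with 90.0, 102 and 83.3 CPM in control. DESeq2 called TNFRSF1A in BD against NBD (adjusted p = 0.00732) and SOCS1, a feedback inhibitor of JAK kinases, in BD against control (adjusted p = 0.0384). Limma-voom called 0 of the list genes.

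Without control replicate 3, edgeR called more of each list against control. In BD against control these were 2 higher and 0 lower of 4 receptors, 6 and 0 of 9 other ligands, 5 and 3 of 16 cytokine and receptor genes, 7 and 1 of 20 NF-kB genes, 8 and 0 of 12 STAT genes, 0 and 2 of 8 proteases, and 4 and 2 of 12 decay regulators. In NBD against control these were 2 higher and 0 lower of the receptors, 5 and 0 of the ligands, 2 and 3 of the cytokine genes, 6 and 2 of the NF-kB genes, 5 and 0 of the STAT genes, 0 and 2 of the proteases, and 5 and 2 of the decay regulators. These stand beside the shares of all genes given for this fit, 13.8% higher and 10.5% lower in BD and 11.6% higher and 6.56% lower in NBD. IL6 rose by 3.68 ± 0.50 in BD and 2.92 ± 0.48 in NBD on the log2 scale, NFKBIA by 2.32 ± 0.26 and 1.92 ± 0.26, and DUSP1, a phosphatase of MAP kinases, by 4.51 ± 0.72 and 3.82 ± 0.70. With control replicate 3 as the only control, none of the list genes was called.

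**Figure D3:**
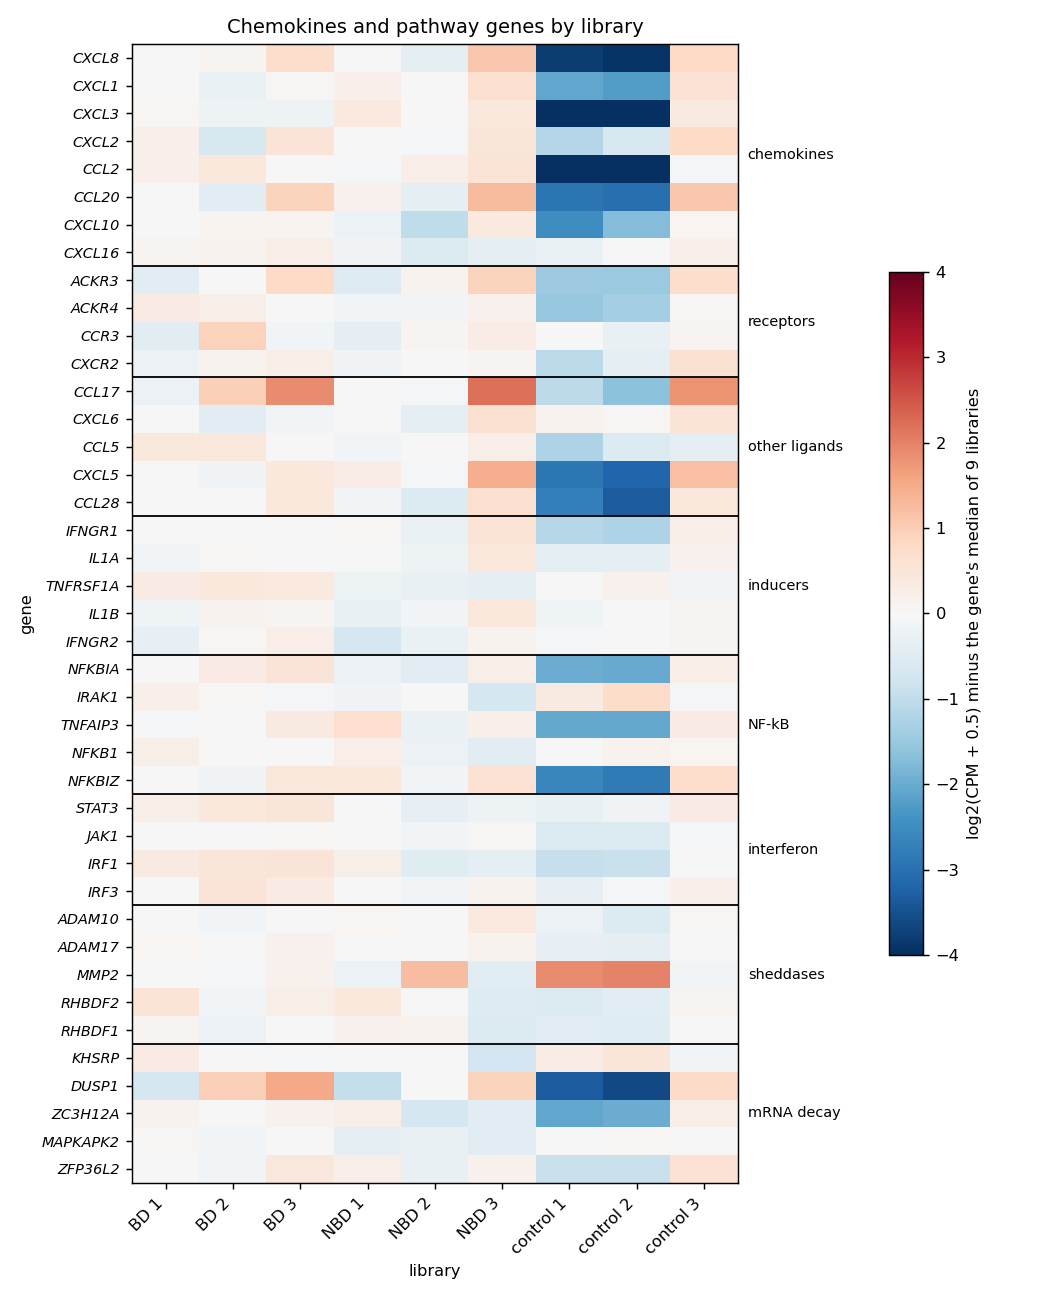
Heatmap of the 8 tested chemokines and of abundant genes of each pathway list, with libraries in columns (BD, NBD, then control) and genes in rows; colour is log2(normalised CPM + 0.5) minus the gene's median over the 9 libraries, limited to 4 in either direction. Control replicates 1 and 2 are low for CXCL8, CCL2, CXCL3, CXCL5, NFKBIA, TNFAIP3 and NFKBIZ, while NFKB1 and CXCL16 show little difference between the control libraries.

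Across the 9 libraries, the tested protein-coding gene with the course most like each member was found by Pearson's r of log2(normalised CPM + 0.5). It was CD74, the class II invariant chain, for CXCL8 (r = 0.996), CXCL5 for CXCL1 (0.994), BRINP3 for CXCL3 (0.997), TLR5, the flagellin receptor, for CXCL2 (0.965), TUSC3 for CCL2 (0.997), IL19, an interleukin-10 family cytokine, for CCL20 (0.995), ADPGK for CXCL10 (0.991) and CKAP4 for CXCL16 (0.975). CD74 had 13.9, 16.5 and 29.7 CPM in BD, 14.3, 10.1 and 25.8 CPM in NBD, and 0.0511, 0 and 32.1 CPM in control. The 9 points share 2 libraries, control replicates 1 and 2, that lie apart for many genes, so r is a measure of likeness and no more: it was above 0.95 for 522 genes with CXCL8, 354 with CXCL3, 338 with CCL2, 278 with CXCL1, 231 with CCL20 and 123 with CXCL10, but for 1 gene with CXCL2 and 4 with CXCL16. By Spearman's rho, 3 of the 24 genes that ranked among the nearest 3 of a member kept such a rank.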

How the data were processed

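Total RNA of 9 HaCaT libraries was measured as read counts per gene, deposited by the authors without normalization. Per the submitters' processing notes, FastQC 0.74, Trimmomatic 0.39, STAR 2.7.11b and featureCounts were used, with GRCh38 as the genome. Annotation release, strand setting and handling of multiply matching reads were not given in the sources used here. Per the labels' protocols, RNA was extracted with a pair of kits, and the kit of each library is not stated.

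Symbols came from a gene name table, and coordinates, exon lengths and overlaps from GENCODE 29 on GRCh38. Tests were run in edgeR 4.0.16 (R 4.3.3) with filterByExpr, TMM scaling and 1 quasi-likelihood fit of all 9 libraries by group, which left 6 residual degrees of freedom. They were two-sided, p-values were adjusted by Benjamini-Hochberg over the whole table, and the threshold was 0.05. Log2 fold changes are ± SE with 95% intervals, and levels are mean ± SD with n = 3. Interval and floor values (3 counts) for single libraries cover counting error only. No replicates agreed within sampling noise: the chi-square per degree of freedom over genes was 13.2 to 176. The test was checked on simulated counts with known changes, placed in the more abundant genes. Over the 3 comparisons it recovered 22.4 to 34.3% of 2-fold, 86.6 to 91.0% of 4-fold and 97.0 to 100% of 8-fold changes. There were 7 to 10 false calls per comparison. Most 2-fold changes were therefore missed. The simulated libraries of a group shared 1 mean, without the gap between the control libraries. The shares recovered therefore do not carry over to the members. A member not called may differ by 2-fold or more: the interval of CCL2 in BD against control reached 25.2-fold. Alternatives were DESeq2 1.42.0, limma-voom (limma 3.58.1), other size factors, other filters, the replicate number as a block, the 6 libraries of the groups compared, and leaving out libraries.

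The members, gene lists, markers, tests and alternatives were chosen with earlier results of these data known. Named by rule were all members, the 3 genes most like each by Pearson's r (of which the first is given), up to 5 of the most abundant tested genes of each list per kilobase, any list gene called, and the members' direct receptors. Of the genes so named and of the markers, 1 each is not reported here. TNF, IL6, RELA, SOCS1, CCL7, CCL26, CXCL11, TRAF3IP2, CHUK, ART3 and MED11 are named outside that rule, chosen after their values were seen. Promoters are RefSeq sequences. Those of CCL2, CXCL16 and CX3CL1 are not used here.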

Additional observations from a re-analysis of the deposited data

How the results depend on the processing

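Of 408 alternative log2 fold changes of the members, 357 kept their direction and their side of the threshold, 3 (CXCL3 by DESeq2, with no adjusted p) kept their direction, 19 kept their direction and came past it, and 29 changed sign. With no filter on low counts, edgeR called 3 members in BD against control (CXCL3, CXCL8 and CCL2) and 4 in NBD against control (these and CXCL1). Their standard errors were then smaller than with the filter. Leaving out 1 library at a time gave 0 to 6 called members in BD against control and 0 to 6 in NBD against control, the 6 in both without control replicate 3, and 0 in BD against NBD. Over all genes, calls in BD against NBD numbered 3 as reported, 131 with no filter, 58 with DESeq2, 5 with limma-voom, 16 without control replicate 3 and 9 with it as the sole control. Leaving out NBD replicate 1 gave 3 and control replicate 2 gave 4, while 0 were called when control replicate 1, NBD replicate 2, NBD replicate 3 or any BD library was left out. Calls were 0 as reported in both comparisons with control. In BD they were 1162 with no filter, 167 with DESeq2 and 4317 without control replicate 3, and in NBD 594, 30 and 3228.

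Whether the replicate numbers pair the libraries was not settled by the correlation of the deviations of same-numbered libraries. It was 0.0838 to 0.657 for BD and NBD, 0.0509 to 0.288 for BD and control and 0.00252 to 0.492 for NBD and control. A library correlated best with its own number in 4, 5 and 4 of 6, and with another number in the rest. With the replicate block 0 members and 0 genes were called in any comparison. The block moved log2 fold changes against control, in BD to 3.88 for CCL2, 2.57 for CXCL3, 2.37 for CXCL8, 2.06 for CXCL10, 1.92 for CCL20, 1.07 for CXCL1 and 0.53 for CXCL2, and in NBD to 3.74, 2.88, 2.22, 1.48, 2.10, 1.38 and 0.68, with medians over the 8 of 1.99 and 1.79. An unadjusted p was under 0.05 for 3 and 4 members. With the block the sign in BD against NBD turned for CXCL8 (0.16) and CCL2 (0.14).

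Other changes of sign were of values with no call. Leaving out 1 library at a time, log2 fold changes in BD against NBD ran over -0.44 to 0.28 for CXCL2, -0.32 to 0.50 for CXCL8, -0.79 to 0.39 for CCL20, -0.19 to 0.10 for CCL2 and -0.031 to 0.85 for CXCL10, and those of CXCL2 over -0.22 to 1.77 in BD and -0.14 to 1.84 in NBD against control. In BD against NBD, CXCL2 turned to 0.28 when BD replicate 2 was left out and to 0.22 when NBD replicate 3 was. That of CXCL8 was 0.043 by limma-voom, 0.06, 0.01 and 0.50 without BD replicate 1, BD replicate 2 and NBD replicate 3. CCL20 reached 0.39 without NBD replicate 3, CCL2 0.05 without BD replicate 3 and 0.10 without NBD replicate 3, and CXCL10 -0.031 without NBD replicate 2. In BD against control with control replicate 3 as the only control, CXCL1 was at -0.65, CXCL2 at -0.90, CXCL3 at -0.50, CXCL8 at -0.50, CCL20 at -0.87, CXCL10 at -0.011 and CXCL16 at -0.046. CXCL2 was also at -0.12 without BD replicate 3, -0.22 without control replicate 1 and -0.05 without control replicate 2. In NBD against control with that control alone, CXCL1 was at -0.28, CXCL2 at -0.83, CXCL3 at -0.090, CXCL8 at -0.43, CCL20 at -0.59 and CXCL10 at -0.32, and without control replicate 1 CXCL2 was at -0.14. The cause was not tested. The kappa-B motif was in 5 of 6 members in the 250 bases before the start too, and the rank of the levels was the same without length correction. Depth limits CX3CL1 throughout, and CXCL2, CXCL3, CCL20 and CXCL10 in control replicates 1 and 2, with 0 to 9 counts.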
